A study of Mus musculus with 8 samples.

Results

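The 8 genes described here encode surface proteins by which an antigen-presenting cell steers a T cell: Cd274, Pdcd1lg2, Cd80, Cd86, Cd40, Icosl, Tnfsf4 and Tnfsf14. They were chosen by symbol, and all 8 were found among the 15917 genes of the count table, which covers mouse eosinophils, granule-bearing leukocytes of type 2 immunity. The table held 8 libraries in 4 groups of 2, all from C57BL/6 blood eosinophils cultured for 18 h in RPMI-1640 with serum after magnetic depletion of CD90+ and B220+ cells. In the first experiment cells had no added cytokine (CN) or 15 ng/mL IFN-γ and TNF-α (E1), a type 1 mixture. In the second experiment the E0 cultures had IL-5 at 10 ng/mL. The E2 cultures had a type 2 mixture, in which IL-33 was at 30 ng/mL and IL-4, GM-CSF and IL-5 were at 10 ng/mL. The donors of all groups are described as IL-5 transgenic mice of line NJ.1638, while the genotype label of every sample reads WT. That line makes IL-5 under a T cell promoter, and its eosinophils develop under excess IL-5. If the donors were of that line, CN cells lacked the cytokine in culture but not in the animal.

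T cells need a second signal beside antigen. CD80 and CD86, the B7 proteins, give it through CD28 or withhold it through CTLA-4, and ICOS ligand, encoded by Icosl, acts through ICOS. PD-L1, encoded by Cd274, and PD-L2, encoded by Pdcd1lg2, bind PD-1 and dampen the T cell, which makes them checkpoint ligands. CD40 is itself a receptor, which T cells engage through CD40 ligand. OX40 ligand, encoded by Tnfsf4, and LIGHT, encoded by Tnfsf14, are TNF superfamily ligands, of OX40 and of HVEM and the lymphotoxin-β receptor respectively. IFN-γ is known to raise PD-L1 in many cell types, and IL-4 is known to raise PD-L2 in macrophages.

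Library totals ran from 60809057 to 95065752 counts, and 15913 genes were tested. Levels are read counts per 1000000 (CPM) with TMM scaling, and a ± after a level is the SD of 2 libraries. Log2 fold changes carry their standard error (SE), and calls required p under 0.05 in edgeR's quasi-likelihood test after Benjamini-Hochberg adjustment over all genes. How the libraries of a group relate to animals and cultures is not stated in the sources used here, so p-values measure only the spread between these libraries. Y-linked transcripts were abundant in the first replicate of each group and Xist in the other. The 2 libraries of a group thus had separate donors, of different sex, and the spread between them includes that difference. The eosinophil markers Ccr3, at 1254.5 to 2575.7 CPM by group, and Siglecf, at 744 to 971 CPM, were abundant throughout. Of the 10 eosinophil markers listed, however, 7 were called lower in E2 than in E0, Ccr3 among them, and 1 higher. Their median log2 fold change there was -1.07.

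Both PD-1 ligand genes lie on chromosome 19, 22823 bases apart in mm10 (Cd274 from 29367455 to 29388095, Pdcd1lg2 from 29410919 to 29471161, both on the plus strand). Their RefSeq promoter windows, from 250 bases before to 50 after the annotated start on the plus strand of GRCm38.p6 (chr19:29367188-29367487 and chr19:29410669-29410968), are shown because these neighbours answered the 2 mixtures in different proportion. Capitals mark matches to the motifs searched.
Cd274: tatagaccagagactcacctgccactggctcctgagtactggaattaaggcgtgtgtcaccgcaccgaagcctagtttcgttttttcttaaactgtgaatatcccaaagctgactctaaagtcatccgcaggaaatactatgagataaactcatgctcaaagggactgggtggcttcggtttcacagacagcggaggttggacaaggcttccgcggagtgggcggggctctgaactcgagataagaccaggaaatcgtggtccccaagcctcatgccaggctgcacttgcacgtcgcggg
Pdcd1lg2: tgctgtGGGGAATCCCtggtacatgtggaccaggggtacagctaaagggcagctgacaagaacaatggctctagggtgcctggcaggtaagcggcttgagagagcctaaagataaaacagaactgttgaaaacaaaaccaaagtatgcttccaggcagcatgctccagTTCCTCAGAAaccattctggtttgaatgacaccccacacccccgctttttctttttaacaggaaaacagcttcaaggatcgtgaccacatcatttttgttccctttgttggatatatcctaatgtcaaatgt
RefSeq windows were found for 5 of the 8 genes, namely Cd274, Pdcd1lg2, Cd80, Icosl and Tnfsf14. Each was searched on both strands for TTCNNNNGAA, the letters of a STAT6 type site, for GAAANNGAAA, those of an IRF type site, and for the kappa-B consensus. Only the Pdcd1lg2 window among the 5 held a match, a STAT6 type match starting 82 bases before the start (TTCCTCAGAA) and a kappa-B match starting 244 bases before it (GGGGAATCCC). Of all 32851 windows in the table, 6.95% held the STAT6 type letters, 4.51% the kappa-B consensus and 3.44% the IRF type letters. A match describes the letters and is not shown to be a bound site.

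Under IFN-γ and TNF-α, both checkpoint ligand genes, Cd40, Tnfsf4 and Tnfsf14 rose, Icosl fell, and the B7 genes Cd80 and Cd86 did not pass the test. Thus 5 of the 8 genes were called higher and 1 lower in E1 versus CN, where 9.19% of all genes tested were called higher and 8.08% lower. With library totals as the scaling the higher share of all called genes went from 53.2% to 38.6%, and the same number of ligand genes was called each way. The median log2 fold change of the 8 genes was 1.28, with Tnfsf4 as fitted or at its bound, against -0.014 over all genes. In bulk RNA, a change in the number of cells that carry a transcript and a change per cell cannot be told apart.

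Under the type 2 mixture, both checkpoint ligand genes, Cd80, Cd40, Icosl and Tnfsf4 rose above the level with IL-5 alone, and Tnfsf14 fell. In E2 versus E0, 6 of the 8 genes were called higher and 1 lower, beside 17.0% and 18.5% of all genes, with a median of 1.76 against -0.017 over all genes. Cd86 was the gene without a call in both experiments. The difference of the responses, the change from E0 to E2 minus the change from CN to E1, was called for 5 of the 8 genes, positive for 2 and negative for 3, where 11.3% of all genes were called positive and 14.0% negative. With library totals as the scaling, the positive share of all called genes went from 44.7% to 53.4%, and the calls of the 8 genes did not change.

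**Figure D1:**
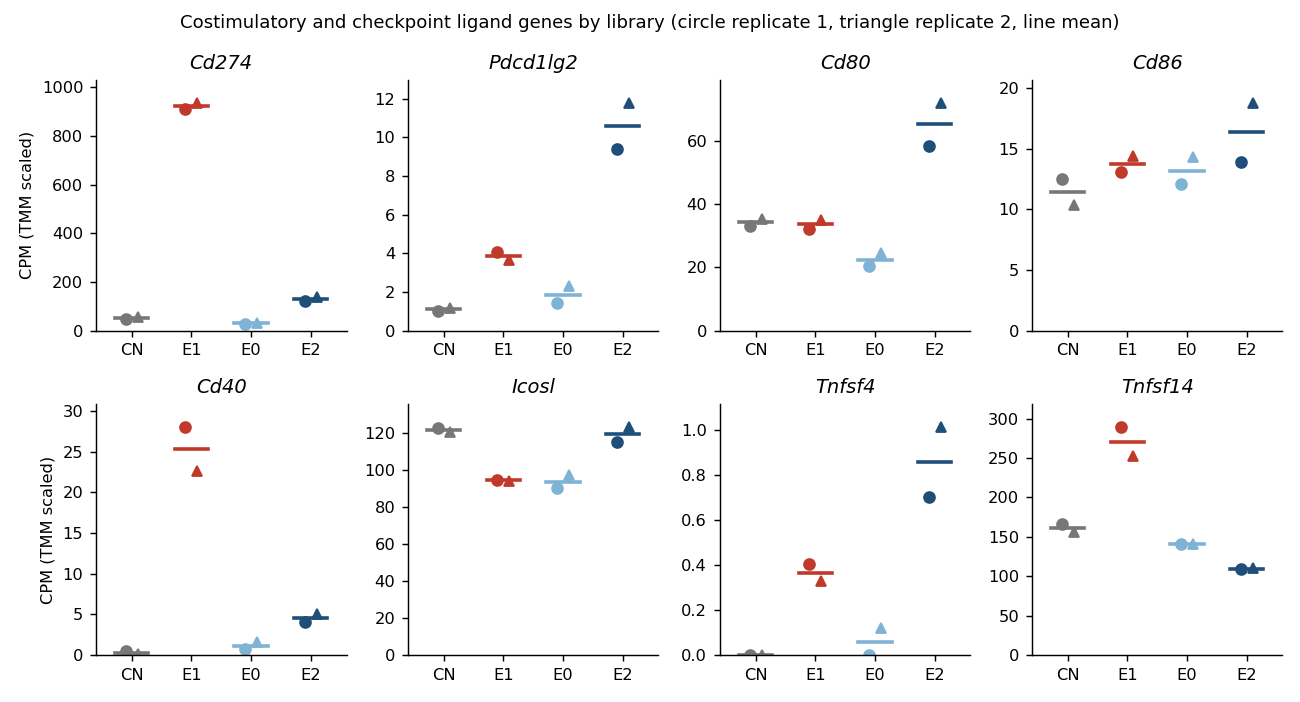
Levels of the 8 genes in each library, in CPM with TMM scaling on linear axes from 0, by group (CN no cytokine, E1 IFN-γ and TNF-α, E0 IL-5, E2 IL-5, GM-CSF, IL-4 and IL-33). Circles are replicate 1, triangles replicate 2 and lines group means. Cd274, Cd40 and Tnfsf14 stood highest in E1 (924, 25.3 and 271 CPM), and Pdcd1lg2, Cd80 and Tnfsf4 highest in E2 (10.6, 65.4 and 0.860 CPM).

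Cd274 stood at 47.3 and 57.7 CPM in CN and at 911 and 937 CPM in E1. It stood at 25.6 and 33.0 CPM in E0 and at 121 and 137 CPM in E2. No 2 groups overlapped, and the order from low to high was E0, CN, E2, E1. The log2 fold change was 4.14 ± 0.15 in E1 versus CN (adjusted p = 8.58e-07) and 2.14 ± 0.14 in E2 versus E0 (adjusted p = 2.79e-05), a 17.6-fold and a 4.39-fold rise. The response to the type 2 mixture was the smaller, by -2.003 ± 0.20 (adjusted p = 0.000227). The gene overlaps exons of an annotated gene on the opposite strand, AC119228.1, which was not analysed here. The strand setting of the counting is not given in the sources used here, so reads of that gene could be included.

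Pdcd1lg2 was a far less abundant transcript. Its CN libraries had 1.03 and 1.18 CPM and its E1 libraries 4.08 and 3.63 CPM. The E0 libraries had 1.43 and 2.29 CPM and the E2 libraries 9.37 and 11.8 CPM. The order was CN, E0, E1, E2, again with no overlap. It rose 3.49-fold in E1 versus CN (1.80 ± 0.25, adjusted p = 0.00136) and 5.64-fold in E2 versus E0 (2.50 ± 0.24, adjusted p = 0.000182). The difference of these responses was 0.69 ± 0.34 and was not called (95% interval -0.083 to 1.47, adjusted p = 0.178), but without E0 replicate 2 it was 1.08 and called (adjusted p = 0.0466).

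Divided by exon length (RPKM, using the union of exons in GENCODE M21), Cd274 exceeded Pdcd1lg2 in every library. The ratio was 24.8 and 26.5 in CN and 121 and 140 in E1. In E0 it was 9.67 and 7.79, and in E2 it was 6.98 and 6.27. The excess of Cd274 was thus widest in E1 and narrowest in E2, with no overlap between groups. It was already narrower in E0 than in CN, where cytokine and experiment cannot be told apart.

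Cd80 and Cd86, which share the receptors CD28 and CTLA-4 and stand 1789479 bases apart on chromosome 16, differed in their response to the type 2 mixture. Cd80 (chromosome 16, 38455561 to 38496335, plus strand) stood at 33.2 and 35.3 CPM in CN against 32.2 and 35.1 CPM in E1. In E0 the libraries had 20.5 and 24.4 CPM, in E2 58.5 and 72.2 CPM. CN and E1 overlapped, E0 lay below both and E2 above. The change in E1 versus CN was -0.026 ± 0.13 on the log2 scale (95% interval -0.32 to 0.27, adjusted p = 0.925), and in E2 versus E0 Cd80 rose 2.91-fold (1.54 ± 0.13, adjusted p = 9.03e-05). The difference of responses was 1.57 ± 0.18 (adjusted p = 0.000556).

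Cd86 (chromosome 16, 36603869 to 36666081, minus strand) was not called in either experiment. The CN libraries had 12.5 and 10.4 CPM and the E1 libraries 13.1 and 14.5 CPM. The E0 libraries had 12.1 and 14.3 CPM and the E2 libraries 13.96 and 18.8 CPM. In the order CN, E0, E1, E2 each group overlapped the next, and CN lay below E1 and E2. The log2 fold changes were 0.27 ± 0.17 in E1 versus CN (95% interval -0.12 to 0.65, adjusted p = 0.339) and 0.31 ± 0.17 in E2 versus E0 (-0.071 to 0.69, adjusted p = 0.182). A rise of the size seen for Cd80 in E2 lay outside the second interval.

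In RPKM, the ratio of Cd80 to Cd86 was 1.67 and 1.69 in E0 and 4.14 and 3.79 in E2. It was 2.62 and 3.35 in CN and 2.43 and 2.40 in E1. Set against the sum of both B7 genes, Cd274 had a ratio of 1.05 and 1.29 in CN against 20.5 and 19.3 in E1. In E0 that ratio was 0.799 and 0.866, in E2 1.70 and 1.53. The checkpoint transcript therefore exceeded the B7 transcripts most in E1, and in E0 alone it was the smaller amount.

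Cd40, the receptor gene for CD40 ligand (chromosome 2, 165055627 to 165072948), was near the limit of measurement without stimulation. It had 41 and 12 counts in CN, which are 0.432 and 0.144 CPM, and stood at 28.1 and 22.6 CPM in E1. In E0 it stood at 0.724 and 1.54 CPM and in E2 at 4.08 and 5.07 CPM. The groups did not overlap, in the order CN, E0, E2, E1. Its log2 fold change was 6.42 ± 0.48 in E1 versus CN (adjusted p = 4.82e-05) and 1.99 ± 0.40 in E2 versus E0 (adjusted p = 0.00613), and the difference of responses was -4.43 ± 0.61 (adjusted p = 0.00127). These sizes depended on single libraries. Without CN replicate 1 the change in E1 was 7.45 and the difference -5.47, and without E0 replicate 2 the change in E2 was 2.66 and the difference -3.76, all still called.

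Icosl, the ICOS ligand gene (chromosome 10, 78069302 to 78083913), changed in opposite directions in the 2 experiments. It stood at 122.7 and 120.4 CPM in CN against 94.8 and 93.95 CPM in E1. In E0 the libraries had 90.1 and 97.04 CPM, in E2 115 and 123 CPM. CN and E2 overlapped, as did E1 and E0, and the first pair lay above the second. It fell 1.29-fold in E1 versus CN (-0.37 ± 0.06, adjusted p = 0.00470) and rose 1.27-fold in E2 versus E0 (0.35 ± 0.06, adjusted p = 0.00362), with a difference of 0.71 ± 0.09 (adjusted p = 0.000813).

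Tnfsf14, the LIGHT gene (chromosome 17, 57189492 to 57194177), showed the reverse pattern. It stood at 165.8 and 155.9 CPM in CN and rose to 289.5 and 252 CPM in E1. In E0 it stood at 140.9 and 141.3 CPM and fell to 109.3 and 109.9 CPM in E2. No groups overlapped. The change was 0.75 ± 0.08 in E1 versus CN (adjusted p = 0.000235) and -0.36 ± 0.08 in E2 versus E0 (adjusted p = 0.00678), with a difference of -1.12 ± 0.11 (adjusted p = 0.000197).

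Tnfsf4, the OX40 ligand gene (chromosome 1, 161395409 to 161418410), was the scarcest of the 8. It had 0 counts in both CN libraries, which allows up to 0.0168 CPM over the group (3 counts), and 34 and 24 counts in E1. In E0 it had 0 and 10 counts and in E2 60 and 79 counts, which are 0.704 and 1.02 CPM. Counts were thus present in all 4 libraries given a cytokine mixture and in 1 of the 4 others. It was called higher in E1 than in CN (adjusted p = 0.0113), by 21.9-fold with CN set at those 3 counts. In E2 versus E0 it rose by 3.66 ± 0.78 (adjusted p = 0.0102). The second call was lost without E2 replicate 2 (3.38, adjusted p = 0.0575), and without E0 replicate 2 no count was left in E0. Such floors cover counting error only, because reads copied by PCR are not independent molecules. The 21.9-fold leaves out the error of the E1 counts.

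**Figure D2:**
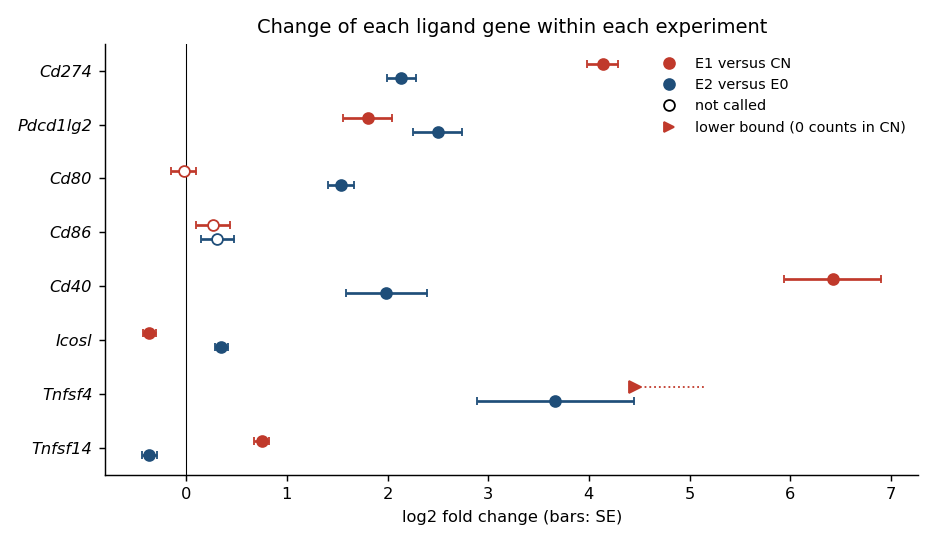
Log2 fold change of each gene in E1 versus CN (red) and E2 versus E0 (blue), with bars for the SE. Filled points were called, open points were not, and the triangle marks the lower bound of Tnfsf4 in E1 (4.45). Icosl and Tnfsf14 lie on opposite sides of 0 in the 2 comparisons, and Cd80 lies at -0.026 in E1 and at 1.54 in E2.

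Compared per unit length, the ligand genes differed widely in amount. In CN, Tnfsf14 led at 87.1 ± 3.82 RPKM, followed by Icosl at 26.3 ± 0.364, Cd274 at 14.5 ± 2.03, Cd80 at 9.24 ± 0.394 and Cd86 at 3.13 ± 0.409 RPKM (SD, n = 2 each). Pdcd1lg2 and Cd40 lay below 1 RPKM there. In E1, Cd274 led at 255 ± 5.13 RPKM, above Tnfsf14 at 146.6 ± 14.3. In E2, Tnfsf14 stood at 59.4 ± 0.230, Cd274 at 35.5 ± 3.08, Icosl at 25.8 ± 1.24 and Cd80 at 17.6 ± 2.61 RPKM, while Pdcd1lg2 (4.78 and 6.01) and Cd86 (3.81 and 5.14) overlapped.

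Tnfsf14 and Icosl together made up most of the summed RPKM of the 8 genes in the unstimulated and IL-5 cultures. Tnfsf14 alone took 63.0% and 60.5% in CN and 67.7% and 64.4% in E0. Cd274 took 9.17% and 11.4% in CN, 6.27% and 7.66% in E0, 55.7% and 59.1% in E1, and 23.2% and 24.1% in E2. These shares are of transcripts per length and say nothing of protein at the surface.

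**Figure D3:**
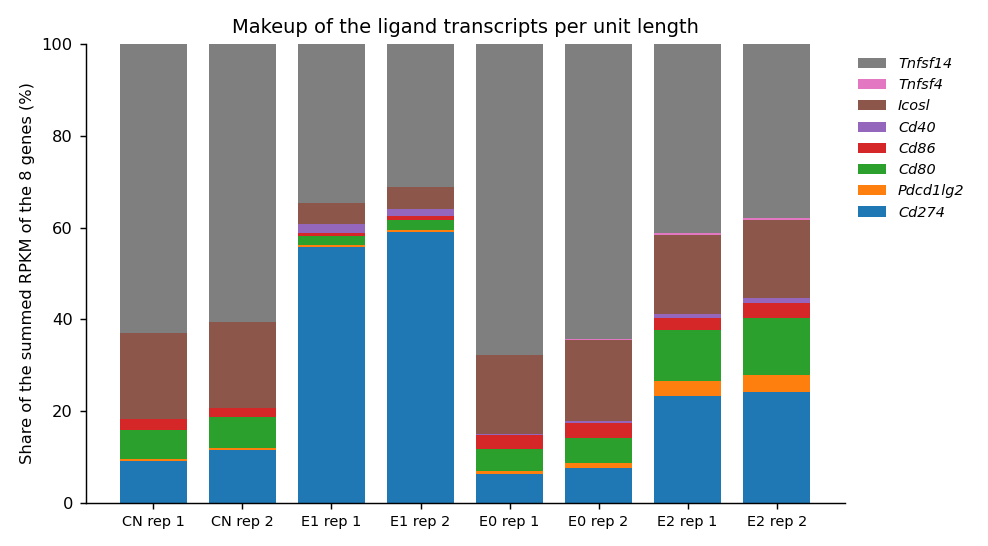
Share of each gene in the summed RPKM of the 8 genes, in percent, for each library (rep, replicate). Tnfsf14 takes the largest share in the CN, E0 and E2 libraries (38.0% to 67.7%) and Cd274 in both E1 libraries.

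E0 and CN, and likewise E2 and E1, come from different experiments, so that cytokine and experiment cannot be told apart. In E0 versus CN, 4 of the 8 genes were called, where 25.4% of all genes were. Cd274 (-0.84 ± 0.14, adjusted p = 0.00375), Cd80 (-0.61 ± 0.13, adjusted p = 0.0111) and Icosl (-0.38 ± 0.06, adjusted p = 0.00394) were lower in E0, and Cd40 was higher (1.96 ± 0.48, adjusted p = 0.0202). Cd40 lost its call without CN replicate 2 (1.41, adjusted p = 0.0781) or E0 replicate 2 (1.30, adjusted p = 0.138), and in the fit on the 4 libraries of these groups (1.96, adjusted p = 0.0562). Cd80 lost its call without CN replicate 2 (-0.56, adjusted p = 0.0552) or E0 replicate 1 (-0.49, adjusted p = 0.0706). Without E0 replicate 1, Pdcd1lg2 (1.05, adjusted p = 0.0199) and Tnfsf4 were called higher, as they were in DESeq2 with all libraries (adjusted p = 0.0243 and 0.0189). With library totals as the scaling, Pdcd1lg2 was called (0.83, adjusted p = 0.0467) and the higher share of all called genes went from 53.0% to 66.8%.

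In E2 versus E1, 6 of the 8 genes were called, where 53.9% of all genes were. Cd274 (-2.84 ± 0.15), Cd40 (-2.47 ± 0.38) and Tnfsf14 (-1.30 ± 0.08) were lower in E2, with adjusted p of 2.30e-06, 0.000828 and 4.60e-06. Pdcd1lg2 (1.46 ± 0.23, adjusted p = 0.00104), Cd80 (0.96 ± 0.13, adjusted p = 0.000402) and Icosl (0.34 ± 0.06, adjusted p = 0.00235) were higher. Scaling by library totals moved the median of all genes in this comparison from 0.018 to 0.16 and the higher share of called genes from 50.6% to 63.6%, and left the 6 calls and their directions in place. Tnfsf4, not called here (1.22 ± 0.62, adjusted p = 0.137), was called higher in E2 in the fit on the 4 libraries of these groups (1.21, adjusted p = 0.0269).

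Several receptors of these proteins were themselves transcribed in the cultures. Of 10 binding partners of the 8 proteins, 6 were in the table, and Pdcd1, Ctla4, Icos and Cd40lg were not analysed here. Beside this list and those below, 9.19% of all genes were called higher and 8.08% lower in E1 versus CN. The shares in E2 versus E0 were 17.0% and 18.5%. In both comparisons 3 partners rose and 3 were not called, with medians of 1.06 in E1 versus CN and 0.33 in E2 versus E0 (-0.014 and -0.017 over all genes). The 3 that rose encode the receptors of LIGHT and a further partner of HVEM. Tnfrsf14, which encodes HVEM, stood at 42.2 ± 0.542 CPM in CN and rose by 1.91 ± 0.08 in E1 (adjusted p = 1.18e-06) and by 1.78 ± 0.08 in E2 (adjusted p = 3.07e-06). Ltbr, the lymphotoxin-β receptor gene, rose by 1.58 ± 0.19 and 0.67 ± 0.19 (adjusted p = 0.000701 and 0.0251). Btla, an inhibitory receptor that also binds HVEM, rose by 2.84 ± 0.24 and 2.04 ± 0.23 (adjusted p = 9.10e-05 and 0.000357), to about 2 CPM in each mixture. HVEM transcripts thus rose in both experiments, whereas those of its ligand LIGHT rose in E1 and fell in E2.

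Other ligands and surface regulators of T cells gave 10 measured genes of 15 listed. In E1 versus CN 6 rose, 0 fell and 4 were not called (median 0.97), and in E2 versus E0 4 rose, 1 fell and 5 were not called (median 0.38). Icam1, an adhesion ligand of LFA-1, rose from 18.1 ± 0.0181 to 187 ± 6.70 CPM in E1 (3.37 ± 0.12, adjusted p = 6.63e-07) and from 16.9 ± 2.39 to 52.1 ± 6.32 CPM in E2 (1.62 ± 0.11, adjusted p = 3.41e-05). Cd200, an inhibitory ligand, and Tnfsf10, which encodes TRAIL, rose in E1 by 4.41 ± 0.85 and 3.02 ± 0.33 (adjusted p = 0.00810 and 0.000393). Nectin2 rose by 3.36 ± 0.31 and Pvr by 0.86 ± 0.27 in E2 (adjusted p = 0.000131 and 0.0367), and both encode ligands of DNAM-1 and TIGIT. Neither was higher in E2 alone. Mean Nectin2 stood at 0.261 CPM in CN and 1.13 CPM in E1, and mean Pvr at 1.15 and 2.59 CPM. Cd276, the B7-H3 gene, fell by 2.40 ± 0.37 in E2 (adjusted p = 0.00177).

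Signalling genes of CD40 included 7 of 10 that rose and 1 that fell in E1 versus CN (median 0.59), and 6 that rose and 1 that fell in E2 versus E0 (median 0.66). Traf1, an adaptor that CD40 recruits, rose by 3.40 ± 0.14 in E1 and by 3.75 ± 0.14 in E2 (adjusted p = 1.51e-06 and 1.85e-06). Relb rose by 2.00 ± 0.09 and 2.23 ± 0.10, and Nfkb2 by 1.46 ± 0.06 and 2.23 ± 0.06, both subunits of the non-canonical NF-kappaB pathway. The adaptor Traf5 fell by 0.39 ± 0.09 and 0.85 ± 0.09 (adjusted p = 0.0195 and 0.000309). Adjusted p for Relb was 3.17e-06 and 3.07e-06, and for Nfkb2 1.28e-06 and 5.59e-07.

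Of 15 genes by which interferon and TNF signals reach Cd274 or act on its product, 8 rose and 1 fell in E1 versus CN (median 0.30), and 5 rose and 4 fell in E2 versus E0 (median 0.11). Irf1, a transcription factor induced by IFN-γ, rose by 4.23 ± 0.10 in E1 (adjusted p = 1.09e-07). Socs1, a feedback inhibitor of cytokine receptors, rose by 2.08 ± 0.16 in E1 and 2.54 ± 0.16 in E2 (adjusted p = 4.65e-05 and 2.09e-05). Cmtm6, whose product keeps PD-L1 at the surface, fell by 0.33 ± 0.08 in E1 (adjusted p = 0.0298). In E2, Nfkb1 rose by 1.03 ± 0.07 and Ifngr2 by 0.57 ± 0.08 (adjusted p = 3.03e-05 and 0.00129), while Jak1, Irf2 and Ifngr1 fell by 0.46 ± 0.08, 0.41 ± 0.06 and 0.30 ± 0.08 (adjusted p = 0.00252, 0.00126 and 0.0184).

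Receptors and factors for the type 2 mixture, 14 genes, had 2 higher and 2 lower in E1 versus CN (median -0.060) and 6 higher and 6 lower in E2 versus E0 (median -0.022). Over all genes 9.19% were called higher and 8.08% lower in E1 versus CN, and 17.0% and 18.5% in E2 versus E0. Il4ra, the IL-4 receptor chain, rose from 92.0 ± 10.9 to 297 ± 7.88 CPM in E2 (1.69 ± 0.09, adjusted p = 1.12e-05), and Irf4, a factor induced by IL-4, by 2.76 ± 0.30 (adjusted p = 0.000312). Il2rg, the common γ chain, rose by 2.81 ± 0.10 in E1 and 2.66 ± 0.10 in E2 (adjusted p = 6.52e-07 and 1.65e-06). Stat6, the factor that IL-4 activates, fell by 0.68 ± 0.10 in E2, as did Stat5b (-0.60 ± 0.07) and Il13ra1 (-0.99 ± 0.25), with adjusted p of 0.00128, 0.000534 and 0.0170. In E1, Stat5a rose by 0.49 ± 0.07 (adjusted p = 0.00211), and Il1rap and Il1rl1, the chains of the IL-33 receptor, fell by 0.57 ± 0.10 and 0.49 ± 0.09 (adjusted p = 0.00551 and 0.00550).

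**Figure D4:**
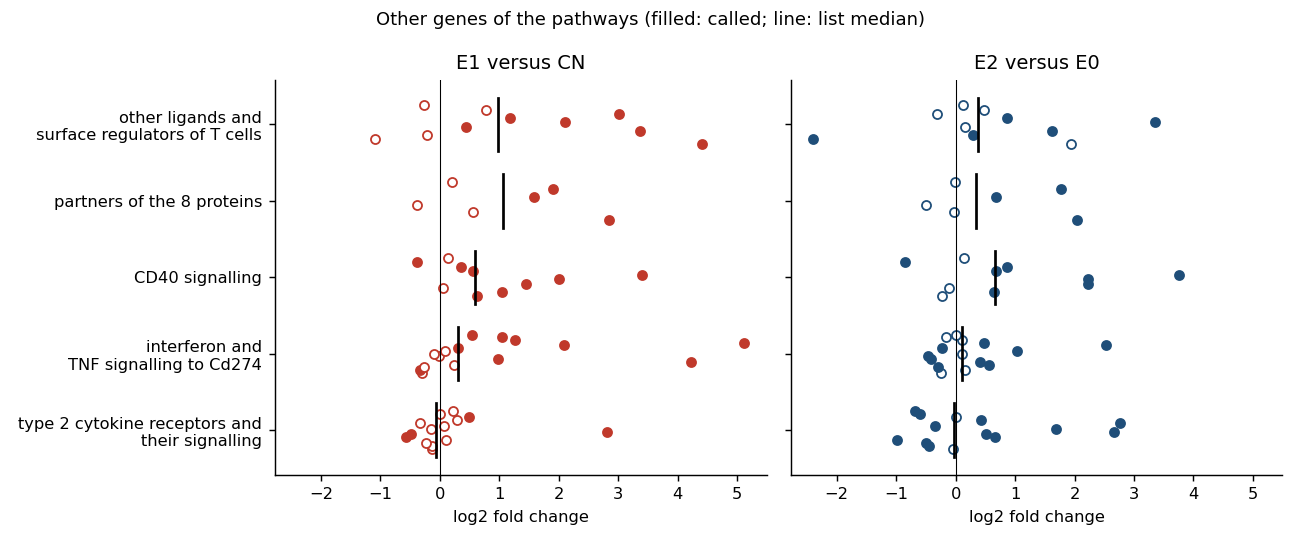
Log2 fold changes of the other pathway genes by list, in E1 versus CN (left) and E2 versus E0 (right). Each point is a gene, filled where it was called, and black lines are list medians. The 3 called partners lie above 0 on both sides, and the type 2 list has its median at -0.060 on the left and -0.022 on the right.

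Antigen-presenting cells other than eosinophils also carry these ligands, and their markers were measured beside them. The calls below stand beside 9.19% of all genes higher and 8.08% lower in E1 versus CN, and 17.0% and 18.5% in E2 versus E0. Summed over 6 B cell markers, all above 0 in every library, CN had 26.5 to 27.4 CPM and E1 22.3 to 24.0. E0 had 31.7 to 33.7 CPM and E2 34.4 to 40.1, and Cd79a was the largest part in every library. Of these 6 markers, 0 were called by edgeR in E1 versus CN, where 1, Cd79a, passed 0.05 before adjustment (-0.23 ± 0.10, adjusted p = 0.170 in edgeR). In E2 versus E0, 2 rose and 0 fell, namely Ms4a1 (1.06 ± 0.28, adjusted p = 0.0191) and Cd79b (0.86 ± 0.28, adjusted p = 0.0413). The 9 dendritic cell markers, none at 0, summed to 137.6 to 189 CPM in CN, 163 to 222 in E1, 268 to 277 in E0 and 249 to 258 in E2, mostly Itgax. Of these, 4 rose and 1 fell in E1, among them Ccr7 from 2.03 ± 1.04 to 42.1 ± 13.03 CPM, and 5 rose and 0 fell in E2.

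Monocyte and macrophage markers, 9 measured of 11 and none at 0, summed to 2627 to 2899 CPM in CN, 6427 to 6893 in E1, 2492 to 2509 in E0 and 3580 to 3745 in E2. They included Adgre1, the F4/80 gene, which mouse eosinophils express, and Ly6c2. Ly6c2 stood at 99.03 ± 8.74 CPM in CN and at 3999 ± 304 CPM in E1, where it made up most of the sum. In E1, 4 rose and 1 fell, and in E2, 4 rose and 5 fell. Neutrophil markers summed to 2460 to 2867 CPM in CN, 1178 to 1590 in E1, 2673 to 3363 in E0 and 883 to 1254.5 in E2. Of the 8 neutrophil markers, 1 rose and 5 fell in E1, and 0 rose and 4 fell in E2. The 10 eosinophil markers summed to 4460 to 4538 CPM in CN, 3862 to 4353 in E1, 4077 to 4460 in E0 and 2739 to 2774 in E2, with 7 of them lower and 1 higher in E2. The 4 measured T cell markers, of 7, summed to 3.56 to 6.26 CPM and the 5 NK cell markers to 3.94 to 17.4 CPM over all libraries, and basophil and mast cell markers to 45.9 to 89.4 CPM. The part of other cells in the changes of the ligand genes was not tested.

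The genes whose log2 levels followed each ligand gene most closely over the 8 libraries were sought among 11061 genes with a mean of at least 1 CPM. For Cd274 they were Lair1, Zbp1 and Ccl5 (Pearson r from 0.993 to 0.995), and for Pdcd1lg2 Tcp1, Mreg and Irf2bp2 (0.992 to 0.994). Cd40 was followed by Setdb2, Papss2 and Slamf8 (0.992 to 0.994), Tnfsf14 by Coro1b, Dlgap4 and Dhx58os (0.993 to 0.996), and Icosl by Pla2g15, Dpy19l3 and Tgm1 (0.972 to 0.982). For Cd80 they were Abhd17c, Dgat2 and Hemk1 (0.976 to 0.989), for Tnfsf4 Nlrc4, Plin2 and Alkbh1 (0.981 to 0.988), and for Cd86 Pbdc1, Odf2l and Nufip1 (0.940 to 0.955). No gene was among the 3 for more than 1 ligand gene. These are descriptions over 4 pairs of libraries, and the best of many genes is high by selection.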

How the data were processed

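Stranded mRNA libraries (TruSeq) were made from 8 eosinophil cultures. The authors deposited raw read counts per Ensembl gene, without normalization. STAR, featureCounts and mm10 appear in the submitters' processing notes, whereas their versions, the annotation, the strand setting and any filter were not given in the sources used here. Of 15918 rows, 1 had no gene name, held 100% of the counts of the named genes as column totals and was left out. Of 15917 IDs, 15730 matched a symbol.

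Tests used R 4.3.3 and edgeR 4.0.16 (filterByExpr, TMM, 1 mean per group over all 8 libraries, quasi-likelihood F test, two-sided), and 15913 genes remained. SE is the fold change divided by the root of F. DESeq2 1.42.0, other scalings and filters, fits on 4 libraries, replicate blocks and each library left out were alternatives. The steps were tested on simulated data. Intervals are at 95%.

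The 8 genes, the lists and the tests were chosen with earlier results of these data known. The 8 are described in full. From each list up to 3 called genes each way with the largest change and at least 1 CPM were named in each of the first 2 comparisons, apart from items not reported here, Cd79a, Cd79b, Ms4a1, Ccr7, Itgax, Ly6c2 and Adgre1 being added after their values were seen, as were Ccr3 and Siglecf. Positions and exon lengths were taken from GENCODE M21 (mm10), which need not be the release used for counting, and promoter windows are from RefSeq.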

Additional observations from a re-analysis of the deposited data

Results flagged for a closer look

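The change from control to cytokine mixture differed between the 2 experiments for 5 of the 8 genes, by the test of the difference of responses (E2 minus E0, less E1 minus CN, edgeR's quasi-likelihood test). On the log2 scale the difference was -4.43 for Cd40, -2.003 for Cd274 and -1.12 for Tnfsf14, whose response to IFN-γ and TNF-α was the higher. It was 1.57 for Cd80 and 0.71 for Icosl, whose response to the type 2 mixture was the higher. Tnfsf14 and Icosl were called in opposite directions in the 2 experiments. The mixtures were given in separate experiments with different controls, one without cytokine and the other with IL-5, so that mixture, control and experiment cannot be told apart in this difference.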

How the results depend on the processing

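Of 482 values of single ligand genes under 16 alternatives, 459 kept their direction and their side of the threshold, 6 lost and 9 gained a call, and 8 changed sign or became 0. None of these 8 values belonged to a gene and comparison that was called in the fit as reported. Leaving out 1 library at a time gave 3334 to 3984 genes called in E2 versus E0 instead of 5655, and 2235 to 2988 in E0 versus CN instead of 4038, where 2 to 5 of the 8 genes were called instead of 4. It gave -0.088 to 0.035 for Cd80 in E1 versus CN, and -0.19 to 0.24 for Cd86 and -5.11 to 1.22 for Tnfsf4 in the difference of responses. For Tnfsf4 in E0 versus CN it gave 0 to 6.33. These Tnfsf4 values rest on groups without counts and depend on the prior count. A replicate block fitted separately for the 2 experiments gave 5521 called genes in E1 versus CN instead of 2749, 8514 in E2 versus E0 and 6821 instead of 4018 in the difference of responses. Under that block Cd86 was called higher in E2 versus E0 (0.30, adjusted p = 0.0367) and Pdcd1lg2 in the difference of responses (0.71, adjusted p = 0.0314). A replicate block over all 8 libraries gave 2842, 5586 and 4093 genes in these comparisons and called neither Cd86 (adjusted p = 0.181) nor Pdcd1lg2 (0.146) there. The differences between replicates 1 and 2 correlated across genes at 0.50 between CN and E1 and at 0.59 between E0 and E2, and at 0.12 to 0.30 between groups of different experiments. The labels do not say that equal numbers share an animal or a day, so the block is given here only. In every group Y-linked transcripts marked replicate 1 and Xist replicate 2, so the block also takes up that difference of sex. A filter of 1 CPM in 2 libraries removed Tnfsf4 from the test. A scarce gene such as Tnfsf4, and Cd40 in CN, is limited by depth.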
